A study of Homo sapiens with 8 samples.

Results

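The Notch signalling genes described here are 10: the receptors NOTCH1, NOTCH2 and NOTCH3, the ligands JAG1 and JAG2, the receptor-modifying enzyme LFNG, and the target genes HES1, HES4, HEY1 and HEYL. They were taken by symbol from a table of RNA-seq counts for 60483 genes, and all 10 were among the 16417 genes abundant enough to be tested. The RNA came from SW1990, an established human cell line of pancreatic ductal adenocarcinoma, and the titles place every sample in the side population, the cells that export a DNA-binding dye. The libraries labelled as PAF1 knockdown, called knockdown-labelled here, came from cells with a CRISPR knockdown of PAF1, a subunit of an RNA polymerase II elongation complex, and the control libraries from SW1990 cells whose titles name no target. Both groups had 2 libraries, whose counts were summed over 2 lanes each. No other genotype, drug or time was given, and whether the knockdown cells were a pool or 1 clone was not stated.

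Notch receptors are single-pass membrane proteins that are activated by ligands on neighbouring cells. Ligand binding allows an ADAM protease and then the gamma-secretase complex to cut the receptor, and the released intracellular part joins the DNA-binding protein RBPJ and a Mastermind coactivator to switch on genes of the HES and HEY families. In the pancreas the pathway holds progenitors back from differentiation, and it is active again in ductal metaplasia and ductal cancer.

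In each group the column name of 1 library began with SP and that of the other did not, so libraries are called SP or unprefixed, and within a group the unprefixed value is given first. The SP names, and only these, also hold P3, so SP and P3 cannot be told apart. The names do not carry the library number of the titles. What SP and P3 mark was not stated, nor why the unprefixed control alone has no CRISPR in its name. Libraries held 17234973 to 22348416 counts. The SP control stood apart from the other 3 libraries, with 42.1 to 45.8 chi-square units per degree of freedom against each of them, while the other pairs of libraries had 11.2 to 30.7. PAF1 itself had 41.7 and 44.4 CPM (counts divided by library size and scaled to a common total) in the knockdown-labelled libraries, against 55.2 and 43.9 CPM in the controls. The SP knockdown-labelled library was thus not below its control, and each direction given here rests on the labels. The ductal epithelial markers KRT7, KRT8, KRT18, KRT19, EPCAM, CDH1 and SOX9 were present in all 4 libraries, with a summed level of 5823 and 5510 CPM in the knockdown-labelled libraries and 6733 and 5574 CPM in the controls. Immune markers summed to 1.39 and 0.316 CPM against 2.91 and 1.25 CPM, and acinar and endocrine markers to 0.868 and 0.211 CPM against 1.81 and 1.05 CPM, and their part in the results was not tested.

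Of the 10 genes, NOTCH3 stood out: it was at 0.485 times its control level, while NOTCH1, NOTCH2 and JAG1 had means slightly above theirs, JAG2, LFNG, HES1 and HEY1 were near theirs, and HES4 and HEYL had means below theirs. None of the 10 passed edgeR's quasi-likelihood test after Benjamini-Hochberg adjustment over all genes, nor did any other gene (0% of 16417). At an unadjusted p under 0.05, 1 of the 10 was called, NOTCH3, against 11.2% of all genes. DESeq2 called 1 of the 10, again NOTCH3, and 1.4% of the 16825 genes to which it gave an adjusted p, and limma-voom called 0 of the 10 and 0 of all 16417 genes. With a term for the prefix in the edgeR fit, 1 of the 10 was called, NOTCH3, against 1.95% of all genes. Estimates were positive for 4 of the 10 and negative for 6, beside 7922 positive and 8495 negative over all genes tested. The median of the 10 was -0.02, beside -0.01 over all genes tested. The prefix pairs agreed in sign for 5 of the 10, beside 62.3% of all genes.

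**Figure D1:**
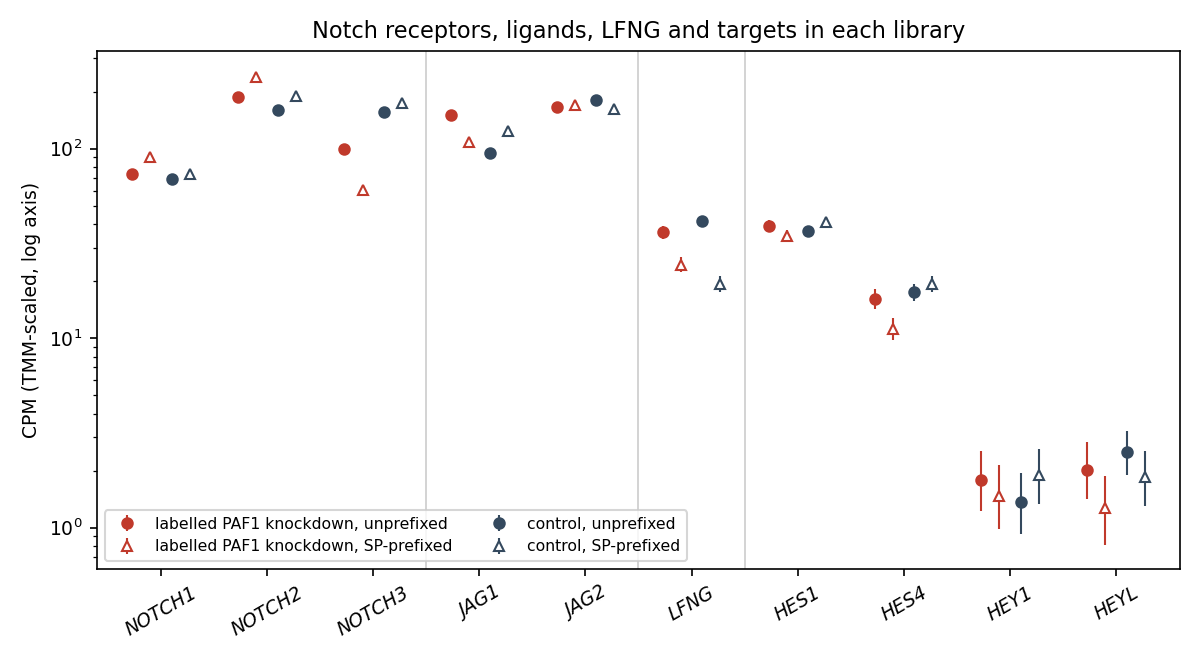
Level of each of the 10 genes in each library in TMM-scaled CPM on a log axis, with 95% counting intervals as bars. Red marks are the knockdown-labelled libraries and dark marks the controls, with circles for unprefixed and open triangles for SP libraries. For NOTCH3 both red marks (99.8 and 60.3 CPM) lie below both dark marks (156 and 174 CPM), and HEY1 and HEYL lie near 1 to 3 CPM throughout.

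Levels are ranked between genes per kilobase of merged exons, averaged over the 4 libraries, while the shares given further on are of counts without correction for length. JAG2 was highest with 26.5 ± 1.15 CPM per kilobase (SD, n = 4 libraries), and its lowest library was above the highest library of HES1, the next gene. HES1 had 18.3 ± 1.34 CPM per kilobase, HES4 14.3 ± 3.09, JAG1 13.98 ± 2.76, NOTCH3 13.05 ± 5.55 and NOTCH2 11.6 ± 1.96. LFNG followed with 8.87 ± 2.99 CPM per kilobase and NOTCH1 with 7.76 ± 0.973. From HES1 down to NOTCH1, the ranges of neighbours in this order overlapped. HEYL and HEY1 came last with 0.522 ± 0.141 and 0.505 ± 0.0779 CPM per kilobase. Their ranges overlapped each other and lay below those of the other 8 genes. The SD of NOTCH3 was the largest of the 10. Each SD here spans both groups and so includes any difference between them.

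NOTCH3 (ENSG00000074181, chromosome 19, 15159038 to 15200981, minus strand, GRCh38) encodes a receptor best known from vascular smooth muscle and pericytes and also made by pancreatic cancer cells. The knockdown-labelled libraries had 99.8 CPM (95.1 to 105, the exact 95% counting interval) and 60.3 CPM (56.9 to 63.9). The controls had 156 CPM (151 to 161) and 174 CPM (168 to 179.9). Both knockdown-labelled libraries were below both controls, as for 22.6% of all genes tested. Of the 10 genes, only NOTCH3 and HES4 had groups that did not overlap, 2 of 10 against 44.7% of all genes. The log2 fold change was -1.04 ± 0.23 (SE over n = 2 libraries each; edgeR, adjusted p by Benjamini-Hochberg = 0.206, unadjusted p = 0.00271), which did not pass. By unadjusted p it stood at place 216 of 16417 genes. With the prefix term NOTCH3 fell by 1.09 ± 0.20 on the log2 scale (edgeR, adjusted p = 0.0273), and in DESeq2 by 1.04 ± 0.24 (adjusted p = 0.00287). The adjusted p of NOTCH3 ranged from 0.00287 to 0.999 over the settings tried.

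The size of the NOTCH3 difference was not the same in the prefix pairs. Labelled knockdown over control was 0.639 (95% counting interval 0.603 to 0.677) in the unprefixed pair and 0.347 (0.324 to 0.371) in the SP pair. The intervals did not overlap, but they cover counting error only, and with 1 library per pair and group the difference between the pairs was not tested over libraries. Without the SP knockdown-labelled library the log2 fold change was -0.72 (edgeR, adjusted p = 0.999), and without the unprefixed one -1.45 (adjusted p = 0.197). Without the SP control, the library that stood apart, it was -0.96 (adjusted p = 0.0899). Without the unprefixed control it was -1.11 and passed (adjusted p = 0.024).

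Because NOTCH3 is abundant in mural and stellate cells, markers of those cells were read beside it. The 8 fibroblast and stellate markers summed to 42.7 and 46.3 CPM in the knockdown-labelled libraries and 39.2 and 50.5 CPM in the controls, so the sums overlapped. DCN and COL3A1, which define fibroblasts, had 0 counts in all libraries, and COL1A1 gave most of the sum with at most 37.9 CPM. PDGFRB, a receptor of mural cells, had 2.37 and 2.85 CPM against 2.91 and 3.94 CPM. LUM, a fibroblast proteoglycan, had 2.89 and 2.32 CPM against 3.57 and 3.74 CPM. Thus 2 of the 5 tested markers of this list had both knockdown-labelled libraries below both controls, against 22.6% of all genes tested. RGS5, a pericyte gene, had 1.39 and 0.738 CPM against 0.881 and 1.79 CPM. The endothelial list summed to 23.8 and 30.03 CPM against 26.2 and 29.3 CPM, most of it from CDH5 with 20.7 and 27.4 CPM against 21.6 and 24.6 CPM. PECAM1, an endothelial adhesion molecule, had 2.37 and 1.48 CPM against 4.05 and 3.14 CPM (log2 fold change -0.91 ± 0.32; edgeR, adjusted p = 0.382, unadjusted p = 0.0255). It was 1 of the 3 tested endothelial markers with both knockdown-labelled libraries below both controls, against the same 22.6% of all genes. Of the other endothelial markers, KDR had 1 and 0 counts against 0 and 0, TEK 0 and 1 against 0 and 0, and CLDN5 0 and 3 against 0 and 3. COL1A2, on the fibroblast list, had 0 and 1 counts against 1 and 0. VWF had 0.637 and 0.948 CPM against 0.617 and 1.45 CPM, and ACTA2 2.14 and 2.58 CPM against 1.94 and 3.14 CPM. For VWF and ACTA2 the groups overlapped. The part of these cell types in the NOTCH3 difference was not tested. In bulk RNA, fewer cells with a transcript and less of it per cell cannot be told apart.

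The 250 bases before the annotated start of NOTCH3 are shown because NOTCH3 has the largest difference of the 10 genes, and because a promoter can be read for RBPJ and HES motifs. The sequence is from RefSeq on GRCh38.p14, chr19:15200996-15201245, minus strand, and is in lower case throughout because it holds no TGGGAA, the core of the RBPJ motif, on either strand.
NOTCH3: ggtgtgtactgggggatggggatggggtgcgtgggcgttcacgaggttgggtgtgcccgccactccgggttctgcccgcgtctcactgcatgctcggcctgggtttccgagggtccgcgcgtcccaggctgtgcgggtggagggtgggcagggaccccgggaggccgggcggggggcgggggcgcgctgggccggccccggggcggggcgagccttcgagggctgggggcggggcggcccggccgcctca
The N box CACNAG, a motif bound by HES proteins, occurs once, with its first base 211 bases before the start. Among 35116 promoter windows of the same length, 32.04% hold CACNAG and 20.8% hold TGGGAA on at least 1 strand. A match is a description of the letters and not a site of binding.

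NOTCH1 and NOTCH2, both widely expressed receptors, had slightly higher means in the knockdown-labelled libraries, within the spread between libraries. NOTCH1 (ENSG00000148400, chromosome 9, 136494444 to 136545862, minus strand) had 73.0 and 90.8 CPM in the knockdown-labelled libraries against 69.2 and 73.7 CPM in the controls. Of these 4, only the SP knockdown-labelled library was clearly higher. The log2 fold change of NOTCH1 was 0.20 ± 0.15 (SE over n = 2 libraries each; edgeR, adjusted p by Benjamini-Hochberg = 0.652), and 0.08 within the unprefixed and 0.30 within the SP pair. NOTCH2 (ENSG00000134250, chromosome 1, 119911553 to 120069626, minus strand) had 187 and 239.6 CPM against 161 and 190.1 CPM. Each knockdown-labelled library was above the control of its own prefix, but the groups overlapped. The log2 fold change of NOTCH2 was 0.28 ± 0.16 (edgeR, adjusted p = 0.554), with 0.22 and 0.33 in the pairs. NOTCH2 shares its first exons with the NOTCH2NL copies. NOTCH2NLA had 3 and 4 counts in the knockdown-labelled libraries and 3 and 12 in the controls, and reads that fit both genes could have been counted in either or in neither. NOTCH4, the fourth receptor, had 2.66 and 3.003 CPM against 2.64 and 1.94 CPM and did not pass (edgeR, adjusted p = 0.722).

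The proportions of the receptors were also read within each library, a measure that does not depend on how libraries are scaled against each other. NOTCH3 made up 27.7% (95% exact binomial interval 26.6% to 28.8%) and 15.4% (14.6% to 16.3%) of the counts of the 3 receptors in the knockdown-labelled libraries. In the controls it made up 40.4% (39.4% to 41.5%) and 39.7% (38.7% to 40.8%). The controls thus matched within counting error, and both knockdown-labelled libraries lay below them and apart from each other. NOTCH2 made up 52.04% and 61.3% against 41.6% and 43.4%, and NOTCH1 20.3% and 23.2% against 17.9% and 16.8%. These shares are not corrected for gene length, so they do not rank the receptors. The mean share of NOTCH3 was 21.6% in the knockdown-labelled libraries and 40.1% in the controls, a difference of -18.5 percentage points (exact permutation test, two-sided p = 0.333, the smallest that 2 libraries against 2 allow). Per kilobase, NOTCH3 was the most abundant of the 3 receptors in both controls, at 2.37 and 2.48 times the level of NOTCH1. In the knockdown-labelled libraries that ratio was 1.44 and 0.699. The ratio of NOTCH2 to NOTCH1 was 1.51 and 1.55 in the knockdown-labelled libraries and 1.37 and 1.52 in the controls, so the proportions of these genes overlapped between groups.

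**Figure D2:**
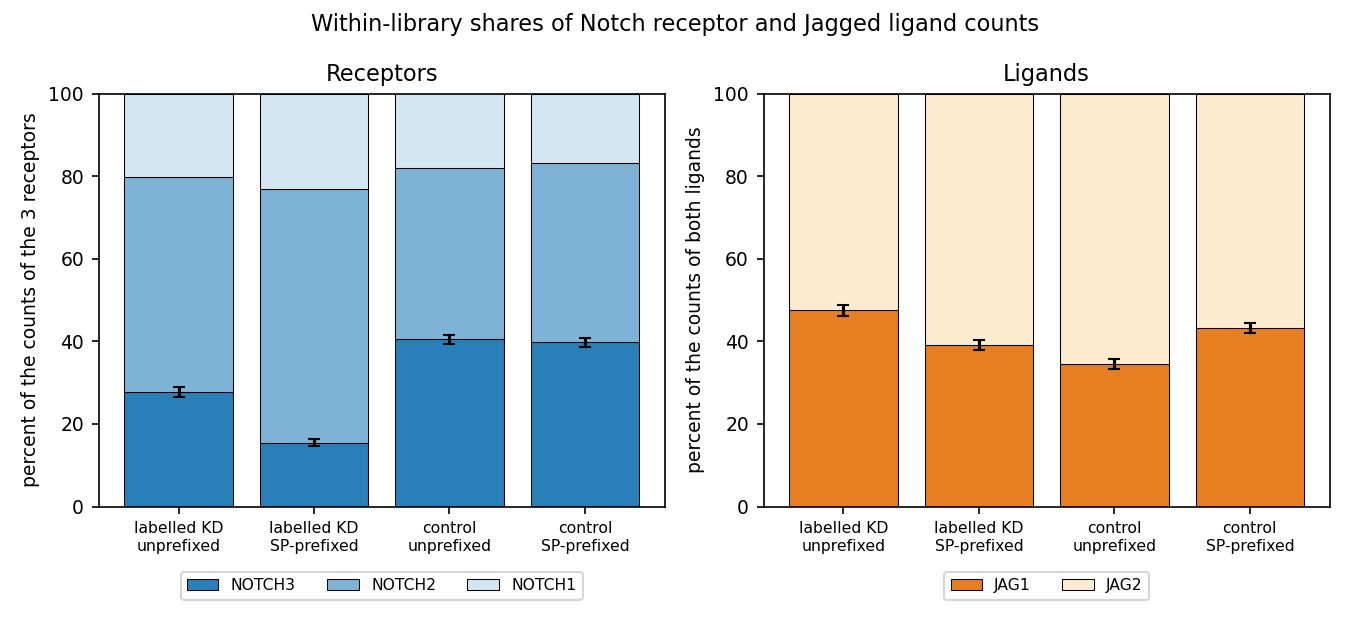
Share in percent of the counts of the 3 Notch receptors (left) and of both Jagged ligands (right) in each library, with knockdown-labelled libraries (KD) left of the controls. Bars on NOTCH3 and JAG1 are 95% exact binomial intervals and cover counting error only. NOTCH3 takes 27.7% and 15.4% of the receptor counts in the knockdown-labelled libraries against 40.4% and 39.7% in the controls, while the share of JAG1 overlaps between groups.

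The Jagged ligands did not separate the groups. JAG1 (ENSG00000101384, chromosome 20, 10637684 to 10674107, minus strand), a membrane-bound ligand, had 149.9 and 109 CPM in the knockdown-labelled libraries, against 94.98 and 124 CPM in the controls. Its highest and its lowest level were both in unprefixed libraries. Its log2 fold change was 0.24 ± 0.20 (SE over n = 2 libraries each; edgeR, adjusted p by Benjamini-Hochberg = 0.68), and 0.66 within the unprefixed and -0.19 within the SP pair. JAG2 (ENSG00000184916, chromosome 14, 105140981 to 105168824, minus strand) lay in a narrow range, with 166 and 169 CPM in the knockdown-labelled libraries and 179.7 and 163 CPM in the controls. Its log2 fold change of -0.03 ± 0.12 (edgeR, adjusted p = 0.946) was within the spread between libraries. JAG1 made up 47.5% and 39.1% of the counts of both ligands in the knockdown-labelled libraries and 34.6% and 43.2% in the controls. Of the Delta-like ligands, DLL1 was the one tested, at 7.87 and 8.27 CPM against 8.68 and 10.1 CPM (log2 fold change -0.21 ± 0.19; edgeR, adjusted p = 0.707). DLL3 had 0 counts in every library and DLL4 at most 13.

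LFNG (ENSG00000106003, chromosome 7, 2512529 to 2529177, plus strand) encodes Lunatic fringe, a glycosyltransferase that extends sugars on Notch receptors and thereby favours Delta over Jagged ligands. It had 36.1 and 24.4 CPM in the knockdown-labelled libraries and 41.4 and 19.3 CPM in the controls. LFNG followed the prefix: both unprefixed libraries were above both SP ones, with a gap wider in the controls. Over both pairs the log2 fold change was -0.01 ± 0.35 (SE over n = 2 libraries each; edgeR, adjusted p by Benjamini-Hochberg = 0.995), and -0.20 within the unprefixed and 0.34 within the SP pair. Without the unprefixed control it was 0.66, and without the SP control -0.45, and neither passed (edgeR, adjusted p = 0.119 and 0.37). Of the other tested enzymes that modify the receptors' sugars, RFNG, a further fringe, and POFUT1, which adds the first fucose, had no such split. RFNG had 51.9 and 46.9 CPM against 51.3 and 51.6 CPM, and POFUT1 218 and 227 CPM against 203 and 175 CPM. POGLUT1 and MFNG did have it, so the split was not particular to LFNG. POGLUT1 had 25.2 and 21.7 CPM against 28.3 and 19.0 CPM. MFNG had 7.06 and 6.32 CPM against 7.40 and 6.58 CPM, with counting intervals that overlapped. None of the 5 tested genes of this list passed (edgeR, lowest adjusted p = 0.536).

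**Figure D3:**
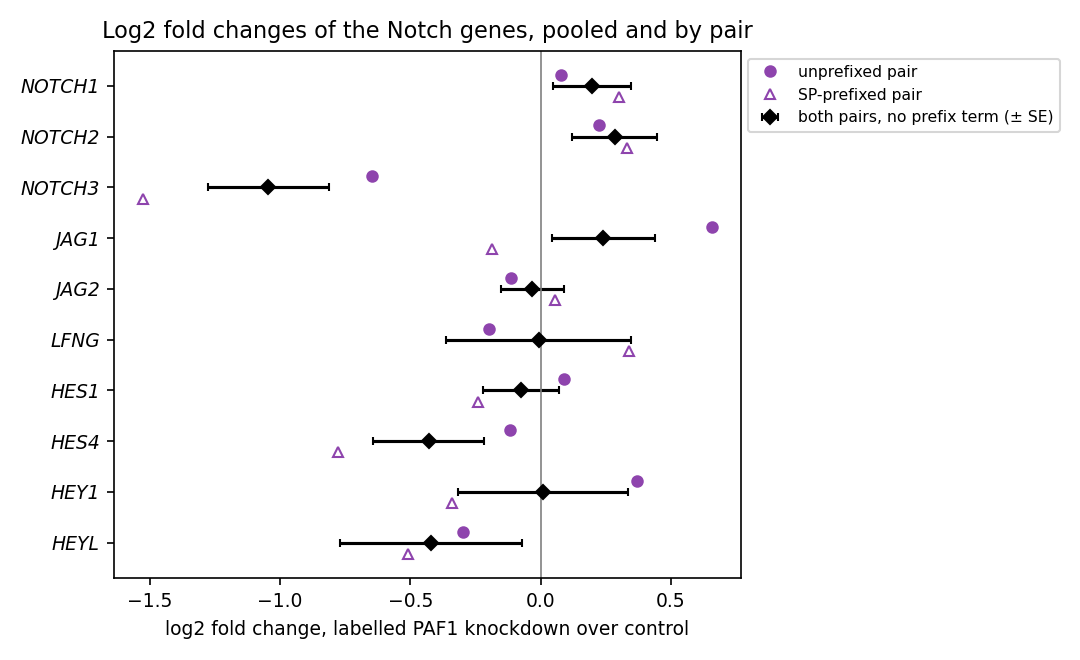
Log2 fold change of each of the 10 genes, knockdown-labelled libraries over controls. Diamonds are the edgeR estimates over both pairs with their SE (n = 2 libraries per group), and circles and open triangles are the values within the unprefixed and the SP pair, without error. NOTCH3 lies at -1.04 with both pairs below 0, while the pairs of JAG1 and LFNG lie on opposite sides of 0.

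Among the targets, HES4 was lower in both knockdown-labelled libraries than in both controls, HES1 was close to its control level, and HEY1 and HEYL had few counts. HES1 (ENSG00000114315, chromosome 3, 194136145 to 194138732, plus strand), a transcriptional repressor and the best-known Notch target, had 39.02 and 34.6 CPM in the knockdown-labelled libraries against 36.6 and 40.9 CPM in the controls. The 4 libraries lay close together and the groups overlapped. Its log2 fold change was -0.07 ± 0.15 (SE over n = 2 libraries each; edgeR, adjusted p by Benjamini-Hochberg = 0.881), with 0.09 and -0.24 in the pairs.

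HES4 (ENSG00000188290, chromosome 1, 998962 to 1000172, minus strand), a repressor of the same family, had 16.1 and 11.2 CPM in the knockdown-labelled libraries against 17.5 and 19.3 CPM in the controls. The log2 fold change was -0.43 ± 0.21 (SE over n = 2 libraries each; edgeR, adjusted p by Benjamini-Hochberg = 0.50), and -0.12 within the unprefixed and -0.78 within the SP pair. In the unprefixed pair the difference was within counting error (ratio 0.922, 95% interval 0.788 to 1.08). In the SP pair it was not (0.582, 0.49 to 0.69). Per kilobase, HES1 was 1.31 and 1.67 times as abundant as HES4 in the knockdown-labelled libraries and 1.14 and 1.15 times in the controls.

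The sequences before the starts of HES1 and HES4 are shown because both genes are classic RBPJ targets whose levels can be read beside the receptors. Each run is 250 bases long, from RefSeq on GRCh38.p14, at chr3:194135898-194136147 on the plus strand for HES1 and chr1:1000098-1000347 on the minus strand for HES4, and capitals mark TGGGAA, the RBPJ core.
HES1: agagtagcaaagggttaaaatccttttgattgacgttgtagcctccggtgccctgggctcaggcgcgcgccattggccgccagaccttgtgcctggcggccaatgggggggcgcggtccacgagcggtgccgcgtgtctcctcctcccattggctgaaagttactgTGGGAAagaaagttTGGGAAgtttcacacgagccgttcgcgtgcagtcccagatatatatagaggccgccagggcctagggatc
HES4: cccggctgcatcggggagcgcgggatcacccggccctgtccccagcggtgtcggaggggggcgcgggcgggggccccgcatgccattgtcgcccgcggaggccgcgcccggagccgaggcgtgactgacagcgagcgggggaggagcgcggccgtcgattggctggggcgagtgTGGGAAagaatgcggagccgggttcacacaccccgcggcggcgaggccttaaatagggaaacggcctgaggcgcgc
Positions here and for NOTCH3 are counted from RefSeq starts, which differ from the ends of the gene spans given for the counts. The HES4 span reaches 1000172 and the HES1 span begins at 194136145, so both windows lie partly within these spans. HES1 holds TGGGAA at 84 and 70 bases before the RefSeq start and HES4 at 76. The first match in HES1 and the match in HES4 are each preceded by G, which makes the longer GTGGGAA, found in 5.43% of the 35116 windows (both strands searched, and every GTGGGAA also counts as a TGGGAA). HES1 holds CACNAG 3 times and HES4 does not hold it. HEYL held TGGGAA 2 times, of which 1 is a GTGGGAA. LFNG has a pair of annotated starts, and the window of 1 of them held TGGGAA and CACNAG once each, at 248 and 53 bases before the start. NOTCH1, NOTCH2, JAG1 and JAG2 held neither TGGGAA nor CACNAG. A promoter was matched for 9 of the 10 genes, the exception being HEY1.

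HEY1 (ENSG00000164683, chromosome 8, 79764010 to 79767863, minus strand) and HEYL (ENSG00000163909, chromosome 1, 39624153 to 39639945, minus strand) encode repressors best known from vessels and heart. HEY1 had 31 and 28 counts in the knockdown-labelled libraries, or 1.79 and 1.48 CPM, against 31 and 38 counts, or 1.37 and 1.89 CPM, in the controls. HEYL had 35 and 24 counts, or 2.03 and 1.26 CPM, against 57 and 37 counts, or 2.51 and 1.84 CPM. The levels of both genes overlapped between groups. Log2 fold changes were 0.01 ± 0.33 for HEY1 and -0.42 ± 0.35 for HEYL (SE over n = 2 libraries each; edgeR, adjusted p by Benjamini-Hochberg = 0.995 and 0.684). HES2, another family member, had 13.5 and 10.9 CPM against 17.0 and 14.6 CPM (log2 fold change -0.37 ± 0.19; edgeR, adjusted p = 0.518). HES3, HES5, HES7 and HEY2 had at most 6 counts in any library and were not tested.

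Counts over wider lists of the pathway were read beside the shares over all genes tested. Lists with further receptors, ligands, targets, proteases, nuclear factors and turnover proteins held 93 genes with the 10 included. Of these, 80 were tested, of which 34 had positive and 46 negative estimates, the median log2 fold change being -0.03. Over all 16417 genes tested, 7922 estimates were positive and 8495 negative. None of the 80 passed without the prefix term (edgeR), while 7 of the 80 had an unadjusted p under 0.05 (3 higher, 4 lower), against 11.2% of all genes. Without the 10, 70 genes were tested, and 3 higher and 3 lower ones had an unadjusted p under 0.05 (edgeR). With the prefix term 2 of the 80 passed, both lower, NOTCH3 and TLE2, against 1.95% of all genes called and 1.41% called lower. Both knockdown-labelled libraries were below both controls for 18 of the 80 genes, and above them for 13, against 22.6% and 22.1% of all genes.

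TLE2, a Groucho-family corepressor that HES proteins recruit, had 13.3 and 13.0 CPM in the knockdown-labelled libraries against 27.1 and 21.9 CPM in the controls. The groups did not overlap and the prefix pairs were alike, with log2 fold changes of -1.03 and -0.75. It fell by 0.89 ± 0.17 on the log2 scale with the prefix term (SE over n = 2 libraries each; edgeR, adjusted p by Benjamini-Hochberg = 0.0358), and without it the log2 fold change was -0.90 ± 0.18 (adjusted p = 0.189). TLE1, a relative of TLE2, had 24.3 and 24.0 CPM against 19.7 and 15.9 CPM (log2 fold change 0.44 ± 0.17; edgeR, adjusted p = 0.406). DNER, a non-canonical ligand known from neurons, had 22.5 and 17.9 CPM against 14.7 and 6.73 CPM. Its log2 fold change was 0.91 ± 0.35 (edgeR, adjusted p = 0.402) and with the prefix term 0.98 ± 0.22 (adjusted p = 0.0523), so it did not pass in either fit. The other non-canonical ligands tested were DLK2, at 15.9 and 18.9 CPM against 20.8 and 17.05 CPM, MFAP2, at 3.65 and 5.95 CPM against 3.88 and 5.28 CPM, and MFAP5, at 2.32 and 5.58 CPM against 2.03 and 2.64 CPM. For DLK2, MFAP2 and MFAP5 the groups overlapped. The corepressors SPEN and HDAC1 had log2 fold changes of 0.03 and 0.12.

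Of the machinery that carries the signal, the DNA-binding protein RBPJ had 41.3 and 44.5 CPM in the knockdown-labelled libraries and 40.4 and 43.4 CPM in the controls, with a log2 fold change of 0.03 ± 0.13 (SE over n = 2 libraries each; edgeR, adjusted p by Benjamini-Hochberg = 0.945). The coactivator MAML2 had 75.7 and 67.9 CPM against 87.2 and 92.95 CPM (log2 fold change -0.33 ± 0.13; edgeR, adjusted p = 0.414), and the acetyltransferases EP300 and CREBBP had log2 fold changes of -0.08 and -0.03. SNW1, a further cofactor, was at -0.02, and MAML3, a weakly expressed relative of MAML2, at -0.31 (edgeR, adjusted p = 0.97 and 0.714). The 9 cleavage genes had a median log2 fold change of -0.0030, with values from -0.58 for ADAM17 to 0.29 for APH1B. ADAM17, a protease that sheds Notch and other surface proteins, had 69.6 and 66.2 CPM against 69.4 and 133 CPM, so its difference rested on the SP control. FURIN, which cuts the receptors on their way to the surface, had 131 and 138 CPM against 120.4 and 101 CPM (log2 fold change 0.28 ± 0.14; edgeR, adjusted p = 0.489). The gamma-secretase subunits NCSTN and APH1A had log2 fold changes of -0.13 and -0.0030. Negative log2 fold changes were found for 8495 of all 16417 genes tested, and for 12 of the 16 trafficking and turnover genes. None of these 16 passed in either fit. Among these, NUMB, an endocytic inhibitor of Notch, had 111 and 104 CPM against 124 and 138 CPM, and the ubiquitin ligase ITCH 348 and 344 CPM against 320.4 and 427 CPM. The Deltex genes DTX3L and DTX4 had log2 fold changes of 0.0011 and -0.31 (edgeR, adjusted p = 0.998 and 0.504).

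Further reported targets of Notch had estimates in both directions, 5 with a positive and 5 with a negative log2 fold change among the 10 tested. NRARP, a feedback inhibitor that Notch induces in many tissues, had 8.86 and 8.54 CPM in the knockdown-labelled libraries against 10.05 and 16.5 CPM in the controls. Its log2 fold change was -0.61 ± 0.26 (SE over n = 2 libraries each; edgeR, adjusted p by Benjamini-Hochberg = 0.447), and -0.18 within the unprefixed and -0.94 within the SP pair. NRARP falls outside the rule for named genes and is added here as the feedback target of the list, a choice made after its values were seen. SOX9, a ductal transcription factor, had 49.96 and 51.1 CPM against 39.05 and 40.5 CPM (log2 fold change 0.35 ± 0.13; edgeR, adjusted p = 0.397). CCND1, the G1 cyclin, had 423 and 477 CPM against 399.6 and 413 CPM, and ID1, an inhibitor of basic helix-loop-helix factors, 484 and 500.1 CPM against 525 and 715 CPM. BHLHE40, a basic helix-loop-helix repressor, had 91.01 and 76.6 CPM against 94.5 and 151 CPM. CDKN1A, the inhibitor p21 of cell-cycle kinases, had 149 and 104 CPM against 149.98 and 130.3 CPM.

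**Figure D4:**
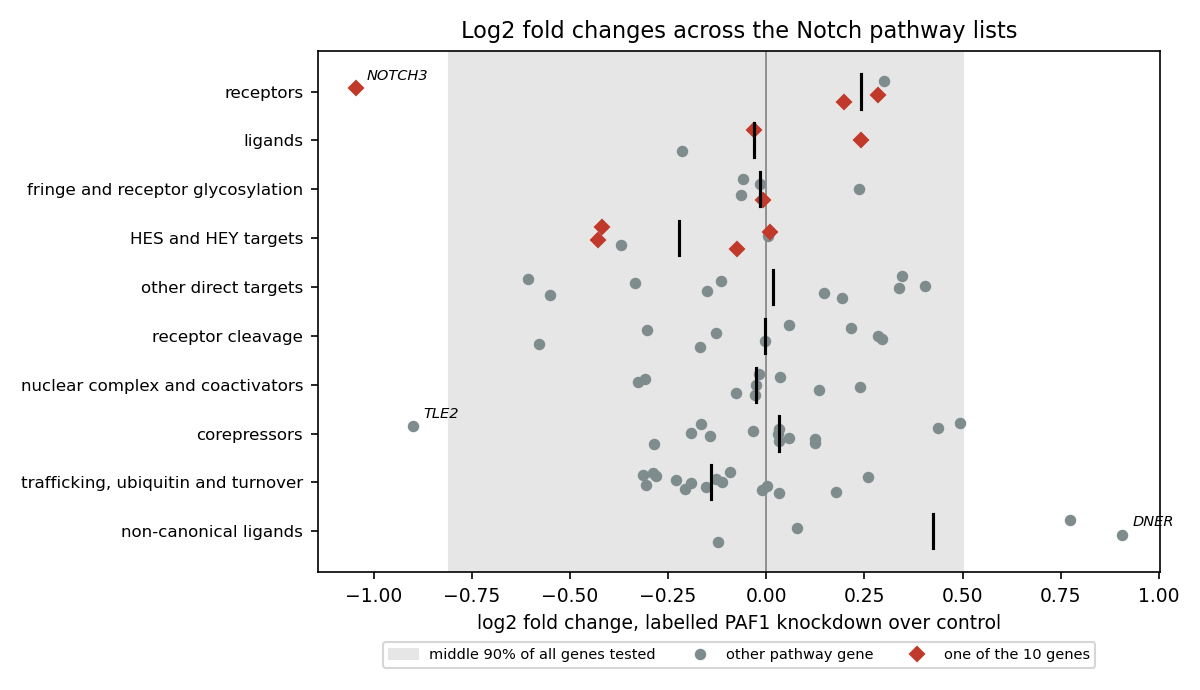
Log2 fold change of every tested gene of the Notch pathway lists, knockdown-labelled libraries over controls (edgeR without the prefix term, n = 2 libraries per group). Diamonds are the 10 genes, grey points the other pathway genes, black bars the median of each list, and the grey band the middle 90% of all 16417 genes tested. NOTCH3 (-1.04) and TLE2 (-0.90) lie below the band, and DNER (0.91) and MFAP5 (0.77) above it.

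The pattern of NOTCH3 over the 4 libraries was shared by genes outside the pathway. Among 11152 genes with a mean of at least 5 CPM and a symbol, the 5 closest by Euclidean distance of mean-centred log2 CPM were BAIAP3, RASAL1, HID1, CDK18 and YPEL3, at distances of 0.106 to 0.171. HID1, a Golgi protein of neuroendocrine secretion, had 39.1 and 26.5 CPM in the knockdown-labelled libraries against 68.0 and 69.3 CPM in the controls. BAIAP3, a regulator of vesicle traffic, had 12.7 and 8.06 CPM against 21.9 and 22.6 CPM. With 4 libraries many genes can come close by this measure.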

How the data were processed

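A mirVana kit was used for RNA isolation per the labels' protocols, all samples had an RNA integrity number of 10, and libraries were made with a TruSeq RNA kit. The tools FastQC, HISAT2 and featureCounts and the builds hg19 and GRCh38 are listed in the submitters' processing notes, with neither versions nor roles. The deposited values are unnormalized counts, whole numbers for each gene in each lane. Strand handling is not given in the sources used here, and reads of overlapping genes on opposite strands could not be told apart. The 9 genes whose spans overlap 1 of the 10 genes had at most 3 counts in any library. Against GENCODE release 29, which is on GRCh38, of 60483 identifiers, 56753 were in it and 56684 of these overlapped the annotated span. Symbols were found for 56321 identifiers.

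Lanes, which the labels call technical replicates, differed by 1.00 to 1.04 chi-square units per degree of freedom over genes with at least 20 counts and were summed. No label states separate cultures for the libraries, and p-values therefore measure only how far libraries differ, which may be technical. The test was that of edgeR 4.0.16 in R 4.3.3 (TMM, default filter with a minimum count of 10, quasi-likelihood F test, Benjamini-Hochberg adjustment at 0.05 over 16417 genes, no covariates, 2 residual degrees of freedom). A second fit had a term for the prefix of the column names and 1 residual degree of freedom. SE were derived from the F statistic. CPM use TMM-scaled library sizes, and values within a pair are differences of log2 CPM with a prior count of 2. Counting intervals are exact Poisson or binomial, at 95%, and cover counting error only. Alternatives were DESeq2 1.42.0, limma-voom (limma 3.58.1), other scalings and filters, single lanes, and leaving out each library. Both edgeR fits were run on simulated counts with the same dispersion for every gene. That simulation had no single library that stood apart, so it does not show how the fits behave on these libraries. Tables used Python 3.11.15, pandas 2.3.3 and scipy 1.17.1, and figures matplotlib 3.10.9.

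The 10 genes, the pathway and marker lists, the tests and the prefix term were chosen with earlier results of these data known. Named genes were the 10, PAF1, and, per pathway list, genes past the test in either fit, up to 3 with the highest level per kilobase and up to 2 with the lowest unadjusted p. The 5 genes closest to NOTCH3 were named as well. RBPJ, NOTCH4, NRARP, APH1B, MFNG, POGLUT1, untested family members and single marker genes fall outside the rule and were added after their values were seen. Some genes that the rule names are not reported here.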

Additional observations from a re-analysis of the deposited data

Results flagged for a closer look

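The prefix pairs of JAG1 and LFNG lay in opposite directions, each by more than counting error. In knockdown-labelled over control libraries, JAG1 had a ratio of 1.58 in the unprefixed and 0.878 in the SP pair. LFNG had 0.872 in the unprefixed and 1.26 in the SP pair. The difference between the pairs was not tested over libraries, since each pair has 1 library per group, and its cause was not tested.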

How the results depend on the processing

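No paired analysis was possible by the numbers of the titles, because the columns carry no library number of the titles. Libraries were paired by the prefix of their column names only. These prefix pairs enter as the prefix term of the second edgeR fit and in the values given within each pair. The number of genes past the test was 0 in the fit reported, 236 in DESeq2, 320 with the prefix term and 0 to 1316 when each library was left out, highest without the unprefixed control, with 208 on leaving out the SP one. Where 1 library remained in a group, it was assumed to vary like the other group. Of the 10 genes, 1 passed in DESeq2 and with the prefix term, and 0 to 1 when a library was left out. NOTCH3 was negative in all 14 alternatives. It passed in DESeq2 (-1.04), with the prefix term (-1.09) and without the unprefixed control, and it ranged from -1.45 to -0.72 when a library was left out. LFNG turned positive without a filter (0.013), in DESeq2 (0.0025), in limma-voom (0.053), with the prefix term (0.062) and on lane 1 alone (0.0067), and ranged from -0.45 to 0.66 when a library was left out. HEY1 was -0.32 on lane 1 alone and -0.20 to 0.25 when a library was left out. Leaving out a library gave -0.16 to 0.012 for HES1, -0.0031 to 0.46 for JAG1 and -0.10 to 0.055 for JAG2. NOTCH1 (0.034 to 0.35), NOTCH2 (0.099 to 0.46), HES4 (-0.70 to -0.19) and HEYL (-0.78 to -0.11) kept their direction, with these ranges when a library was left out, and none of them passed. HEY1 and HEYL had no value under the filter of at least 50 counts in 2 libraries. The median over the 10 genes stayed between -0.14 and 0.02. The median of all genes was -0.01 as reported and -0.02 to -0.0058 under the other scalings. The lowest counts were those of HEY1 and HEYL, 24 to 57 per library. The causes of these changes were not tested.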
